A study of Rattus norvegicus with 9 samples.

Results

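Immediate early genes are the genes that a cell transcribes first after a stimulus, from factors already present and without new protein synthesis. Their levels were followed here for Fos, Fosb, Jun, Junb, Atf3, Egr1, Egr2, Nr4a1, Ier2 and Dusp1. These 10 genes were taken by name from the 35843 genes of the deposited table, in which each name had 1 row. The data came from adult male Sprague-Dawley (SD) rats, 3 animals in each of 3 groups, whose left ventricle was sampled at day 28. Group Sham was sham-operated and received saline by gavage. Group MI had the left anterior descending coronary artery tied and received the same saline. Group MI + DAPA (1st d), named DAP(1st) in the labels and written group DAPA from here on, had the same ligation and received dapagliflozin (DAPA), an inhibitor of the glucose transporter SGLT2, at 1 mg/kg by daily gavage from day 1. By the study's methods, molecular work mainly used the infarct border, with the scar cut away, and the corresponding site in group Sham. For the sequenced RNA, the methods name the left ventricle and the results name infarct myocardium, so the exact site is uncertain. No group used here received DAPA without an infarct, so values of the third group describe drug and infarct together. All values describe whole tissue.

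These genes stand at the end of a short signalling path. Kinases of the MAPK pathways and rises in calcium or cAMP activate serum response factor (SRF), its ternary complex partners and CREB, which can already sit on the promoters of resting cells. Fos, Fosb, Jun and Junb proteins pair into the AP-1 factor, Atf3 joins the same family of dimers, Egr1 and Egr2 are zinc finger factors, and Nr4a1 is an orphan nuclear receptor. Ier2 encodes a small nuclear protein, and Dusp1 encodes a phosphatase that switches MAPKs off again and so closes the loop. In the heart the group is known to respond to ischemia, stretch, adrenergic drive and the handling of tissue, and the transcripts are short-lived.

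The values were FPKM as deposited by the authors, that is fragments scaled to transcript length and to a factor for each library. Whole reads could be recovered from them, at 13597239 to 17210909 reads per rat. The mitochondrial genome held 63.2% ± 3.18 of them in the Sham rats, 13.8% ± 6.15 in the MI rats and 25.6% ± 7.42 in the DAPA rats (mean ± SD, n = 3 each). Between 5702454 and 13171891 reads per rat remained for nuclear genes, fewest in group Sham. The denominators of the FPKM values had been balanced for this, within 0.676% of median-of-ratios factors. Scaled instead to all recovered reads, the median of all genes moved to 0.92 on the log2 scale in MI vs. Sham, to -0.21 in DAPA vs. MI and to 0.74 in DAPA vs. Sham, and changes below are given on the deposited scale, where these medians were within 0.02 of 0. Cardiomyocyte markers were present in every rat, with summed levels of 3215 to 26922 FPKM. Cldn5, an endothelial junction gene, was listed at 0 in all 9 rats, while the other 8 endothelial markers tested were present. The members were covered by 10 reads (Egr2 in Sham rat 2) to 10665 reads (Junb in DAPA rat 1).

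Promoters of 7 of the 10 members were found in the RefSeq table for build GRCr8, and 3, those of Fos, Jun and Atf3, were not. The 250 bases before the annotated start were searched on both strands for 6 motifs. The bases TGACG, the first part of the cAMP response element, were found in 6 of the 7 (Dusp1, Egr1, Egr2, Ier2, Junb and Nr4a1), against 18.2% of all 33469 promoters of the table. The full element TGACGTCA, which contains TGACG, was found in 2 of the 7 (Dusp1 and Ier2) against 1.59% of all promoters. The CArG box bound by SRF was found in 2 (Egr1 and Egr2) against 1.5%. The TATA box TATAAA was found in 2 (Fosb and Junb) against 12.9%. Neither the AP-1 site TGACTCA or TGAGTCA, present in 4.05% of all promoters, nor the EGR site GCGTGGGCG, present in 0.478%, was found in any of the 7. These matches describe letters only. A match absent from these windows says nothing of the factor.

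The promoters of 4 members are printed because the values described below turn on these genes: Egr2, Junb and Nr4a1 differed most between single rats of 1 group together with Fos and Egr1, and Dusp1 held both forms of the cAMP response element. Each is the gene's own strand, 5′ to 3′, with motif matches in capitals. The Egr2 sequence (chr20:21054442-21054691, minus strand, GRCr8) shows its CArG box and, closer to the start, TGACG on the opposite strand. The Junb sequence (chr19:40080876-40081125, plus strand) shows TGACG and, 49 bases before the start, the TATA box. The Nr4a1 sequence (chr7:134259888-134260137, plus strand) shows 4 matches to TGACG, all on the opposite strand. The Dusp1 sequence (chr10:17184603-17184852, plus strand) shows TGACG and the full element TGACGTCA.
Egr2: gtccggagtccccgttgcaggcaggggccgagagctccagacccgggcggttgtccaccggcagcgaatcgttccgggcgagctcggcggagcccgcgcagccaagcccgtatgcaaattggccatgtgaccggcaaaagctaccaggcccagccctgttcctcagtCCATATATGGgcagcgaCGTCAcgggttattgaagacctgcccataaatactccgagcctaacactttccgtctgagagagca
Junb: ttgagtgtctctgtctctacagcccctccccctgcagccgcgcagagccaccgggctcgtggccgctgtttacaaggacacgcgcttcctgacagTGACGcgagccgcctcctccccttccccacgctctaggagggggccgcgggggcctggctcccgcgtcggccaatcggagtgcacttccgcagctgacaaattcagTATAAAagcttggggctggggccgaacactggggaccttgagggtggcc
Nr4a1: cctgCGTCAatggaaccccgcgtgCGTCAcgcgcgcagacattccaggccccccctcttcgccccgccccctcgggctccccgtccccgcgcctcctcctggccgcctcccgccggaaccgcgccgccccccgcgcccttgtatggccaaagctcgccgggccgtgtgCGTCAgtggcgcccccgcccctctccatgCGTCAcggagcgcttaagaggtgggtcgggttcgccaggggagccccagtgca
Dusp1: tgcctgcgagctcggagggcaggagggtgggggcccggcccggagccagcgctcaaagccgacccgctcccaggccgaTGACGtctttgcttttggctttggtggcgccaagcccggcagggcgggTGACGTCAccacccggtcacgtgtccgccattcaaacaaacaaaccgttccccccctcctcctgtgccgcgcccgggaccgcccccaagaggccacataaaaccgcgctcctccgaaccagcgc

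The comparison of group MI with group Sham asks how left ventricle with an infarct differs at day 28 from that of sham-operated rats. Fos, Junb, Egr1 and Egr2 were higher in group MI, with ratios of mean FPKM of 3.65, 2.31, 2.84 and 7.69. On the deposited scale Ier2 and Dusp1 stood lower, and Fosb, Jun, Atf3 and Nr4a1 passed no test. By an unadjusted limma p under 0.05 and a change over 2-fold on log2(FPKM + 1), 4 of the 10 were called higher, where 12.1% of the 13485 genes tested were, and 0 were called lower, where 10.3% were. At an unadjusted p under 0.05 without the fold, 2 members (Ier2 and Dusp1) were lower, where 3295 of the 13485 genes tested were. By the adjusted p under 0.05 alone, 4 were higher (19.5% of all genes) and 1 lower (19.5%). Groups did not overlap for 3 members that were higher (27.1% of all genes) and for 2 that were lower (27.5%). In whole tissue, fewer cells of a type and less RNA per cell cannot be told apart.

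**Figure D1:**
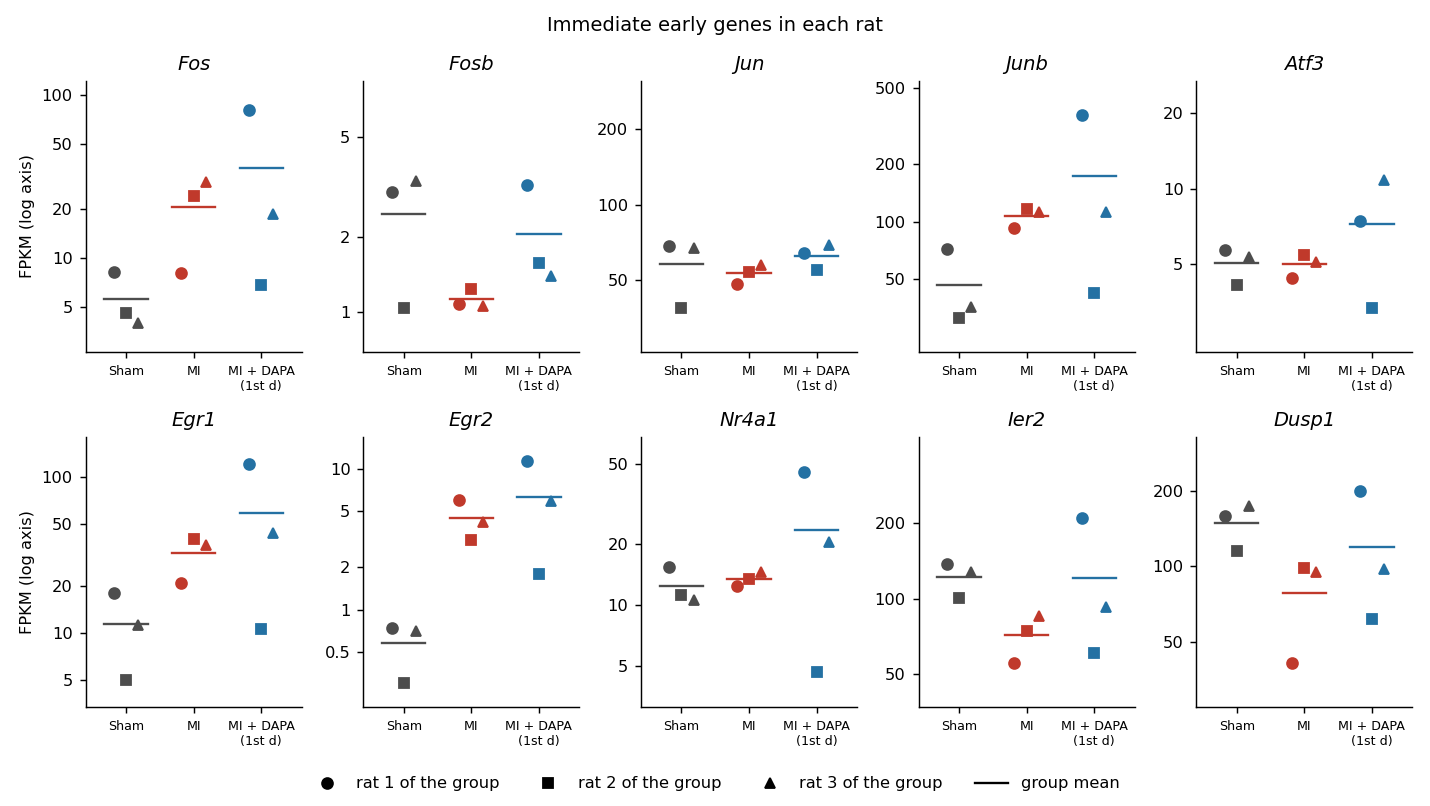
FPKM of the 10 immediate early genes in each rat, on log axes that differ between panels. Symbols give the rat number within its group, colours the group (Sham grey, MI red, DAPA, that is MI + DAPA (1st d), blue) and lines the mean of 3 rats. Rat 1 of group DAPA stood highest of its group in 8 of the 10 panels (29.0% of all genes) and rat 2 lowest in 9 (33.9%).

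Of the AP-1 genes, Fos, whose protein needs a Jun partner to bind DNA, stood at 8.24, 4.60 and 4.002 FPKM in Sham rats 1, 2 and 3. In MI rats 1, 2 and 3 it stood at 8.11, 24.2 and 29.2 FPKM. MI rat 1 lay just below Sham rat 1, so the groups overlapped by that rat alone, while MI rats 2 and 3 lay above every Sham rat. On log2(FPKM + 1) Fos was higher in group MI by 1.58 (SE 0.47, limma adjusted p = 0.0341).

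Junb, a Jun protein that often restrains Jun, stood at 72.5, 31.4 and 35.9 FPKM in the Sham rats and at 92.8, 117 and 113 FPKM in the MI rats. Every MI rat was above every Sham rat. The difference was 1.28 on the log2 scale (SE 0.31, limma adjusted p = 0.0168).

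Jun itself, the common partner in AP-1, did not follow them. It stood at 68.5, 38.9 and 67.1 FPKM in the Sham rats and at 48.5, 53.9 and 57.5 FPKM in the MI rats, with the MI rats inside the range of the Sham rats. The difference was -0.08 (95% confidence interval -0.63 to 0.47 on the log2 scale), which leaves room for changes of up to 1.38-fold upward. It was above 0 without Sham rat 1 or without Sham rat 3.

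Fosb, a close relative of Fos, was the member with the lowest level in group MI. It stood at 3.01, 1.04 and 3.34 FPKM in the Sham rats and at 1.08, 1.24 and 1.06 FPKM in the MI rats, so 2 Sham rats lay above all MI rats and Sham rat 2 below them. The difference of -0.63 (SE 0.31) did not pass (limma adjusted p = 0.152). Its counts were low, at 20 to 99 reads per rat.

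Atf3, a stress-induced factor of the ATF family, stood at 5.72, 4.15 and 5.35 FPKM in the Sham rats and at 4.41, 5.47 and 5.11 FPKM in the MI rats. The ranges coincided and the difference was -0.01 (95% confidence interval -0.42 to 0.40).

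Egr1, the zinc finger factor named early growth response 1, stood at 18.2, 4.98 and 11.3 FPKM in the Sham rats and at 21.1, 40.2 and 36.5 FPKM in the MI rats. The groups did not overlap, although MI rat 1 lay close above Sham rat 1. The difference was 1.53 (SE 0.44, limma adjusted p = 0.0304).

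Egr2, its relative, showed the widest separation of the 10, with 0.739, 0.301 and 0.702 FPKM in the Sham rats and 6.05, 3.15 and 4.20 FPKM in the MI rats. The lowest MI rat was several times the highest Sham rat. The difference was 1.77 on log2(FPKM + 1) (SE 0.26, limma adjusted p = 0.00297), a scale that understates the change of a gene this low. All 3 Sham rats were below 1 FPKM, so Egr2 entered the test through the MI rats and was not tested when any MI rat was left out.

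Nr4a1, the nuclear receptor, stood at 15.4, 11.3 and 10.6 FPKM in the Sham rats and at 12.5, 13.5 and 14.7 FPKM in the MI rats. The groups overlapped, with a difference of 0.13 (95% confidence interval -0.29 to 0.54).

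Ier2 and Dusp1 stood the other way. Ier2 was measured at 137, 100.2 and 128 FPKM in the Sham rats and at 55.3, 74.4 and 85.4 FPKM in the MI rats, and every MI rat was below every Sham rat. The difference was -0.76 on the log2 scale (SE 0.21, limma adjusted p = 0.0253), short of 2-fold.

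Dusp1, the feedback phosphatase, stood at 159, 115 and 173 FPKM in the Sham rats and at 41.1, 98.7 and 95.2 FPKM in the MI rats. Every MI rat was below every Sham rat, and MI rat 1 lay far below the other two. The difference was -0.9998 (SE 0.35, limma adjusted p = 0.0601), so Dusp1 lay at the edge of the 2-fold rule, and it was called lower with a pseudocount of 0.1, without the mitochondrial genome, and without Sham rat 2, MI rat 2 or MI rat 3. Scaled to all recovered reads, Ier2 was at 0.34 and Dusp1 at 0.10, both above 0 but below the median of all genes of 0.92 under that scaling. Fosb, Jun and Atf3, also below 0 on the deposited scale, were then at 0.05, 1.01 and 0.90.

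**Figure D2:**
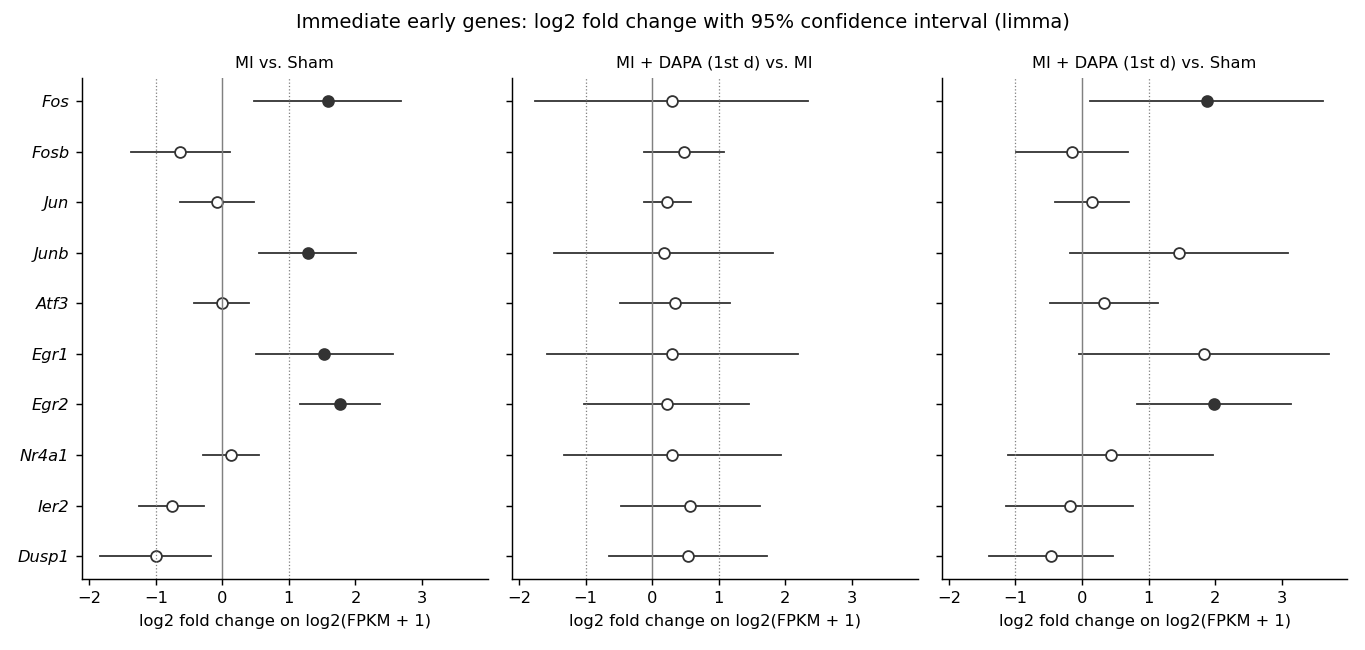
Log2 fold change of each gene on log2(FPKM + 1) in the 3 comparisons, with 95% confidence intervals from limma as bars (3 rats a group). Filled circles passed the unadjusted p of 0.05 and the 2-fold rule, marked by dotted lines at -1 and 1, and all 10 intervals of the middle panel include 0.

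The 4 members called higher in MI vs. Sham kept p under 0.05 and a change over 2-fold in each fit without 1 Sham rat. Fos, Junb and Egr1 did so in each fit without 1 MI rat. The adjusted p under 0.05 was less stable. Without Sham rat 2 it was 0.0956 for Fos, 0.0501 for Junb and 0.0570 for Egr1, and without Sham rat 3 it was 0.105, 0.0609 and 0.0715. Without MI rat 2 it was 0.0926 for Fos and 0.0828 for Egr1, and without MI rat 3 it was 0.0932 and 0.0806. With all 9 rats in 1 fit, only Egr2 of the 4 was called, at unchanged fold changes, since the spread of the third group then enters the error.

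The comparison of group DAPA with group MI asks whether DAPA given from day 1 moves these genes in the infarcted heart. None of the 10 passed. All 10 log2 fold changes were above 0, between 0.17 and 0.58, with a median of 0.30 where all genes had a median of -0.02, and this sign rested on rat 1 for 5 of them. By limma, 0 members were called higher (0.951% of the 13251 genes tested) and 0 lower (1.11%), and 0 had an unadjusted p under 0.05, which 1125 genes did. No gene of the table passed an adjusted p under 0.05 in this comparison, higher (0%) or lower (0%), the smallest being 0.558. Only Fosb had all 3 treated rats above all MI rats (6.63% of all genes), and 0 members were lower without overlap (7.16%).

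The single rats of group DAPA were far apart. Fos stood at 81.3, 6.86 and 18.6 FPKM in its rats 1, 2 and 3. Rat 1 was 2.79 times the highest of the other 8 rats of the study, while rat 2 lay below every MI rat. The difference from group MI was 0.29, with a 95% confidence interval from -1.77 to 2.35.

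Egr1 stood at 122, 10.6 and 44.0 FPKM in the same rats. Rat 1 was 2.77 times the next highest rat, and rat 2 lay in the range of the Sham rats. The difference was 0.30, with an interval from -1.58 to 2.19.

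Junb stood at 363, 42.6 and 112 FPKM. Rat 1 was 3.10 times the next highest rat, rat 3 was at the level of group MI, and rat 2 was in the range of group Sham. The difference was 0.17, with an interval from -1.48 to 1.82.

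Nr4a1 stood at 45.4, 4.70 and 20.6 FPKM. Rats 1 and 3 were the 2 highest of all 9 rats and rat 2 was the lowest. The difference was 0.30, with an interval from -1.33 to 1.93.

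Egr2 stood at 11.4, 1.79 and 5.90 FPKM, so that rat 2 lay between the Sham and the MI rats and rat 3 within the MI rats. The difference was 0.22, with an interval from -1.02 to 1.45.

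Ier2 stood at 209, 60.5 and 92.8 FPKM and Dusp1 at 199.7, 61.5 and 97.8 FPKM. In both, rat 1 was the highest of all 9 rats, and rat 2 lay within the range of group MI. The differences were 0.58 (interval -0.47 to 1.62) for Ier2 and 0.54 (interval -0.65 to 1.73) for Dusp1.

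Atf3 stood at 7.46, 3.36 and 10.8 FPKM, and here rat 3 was the highest. Fosb stood at 3.21, 1.56 and 1.39 FPKM, above the MI rats in all 3 and below Sham rat 3. Jun stood at 64.1, 55.2 and 69.0 FPKM and varied least. Their differences were 0.34 (interval -0.49 to 1.17), 0.48 (interval -0.13 to 1.08) and 0.23 (interval -0.12 to 0.58).

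Without rat 1 of group DAPA, the log2 fold change against group MI was -0.62 for Fos, -0.62 for Junb, -0.51 for Egr1, -0.39 for Nr4a1 and -0.28 for Egr2, all below 0. Without rat 2, the same 5 were at 1.08, 0.91, 1.20, 1.13 and 0.79, and Nr4a1 was called higher (adjusted p = 0.810). Without MI rat 1, Fos was at -0.24. Jun, Fosb, Atf3, Ier2 and Dusp1 kept their sign whichever of the 6 rats was left out.

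**Figure D3:**
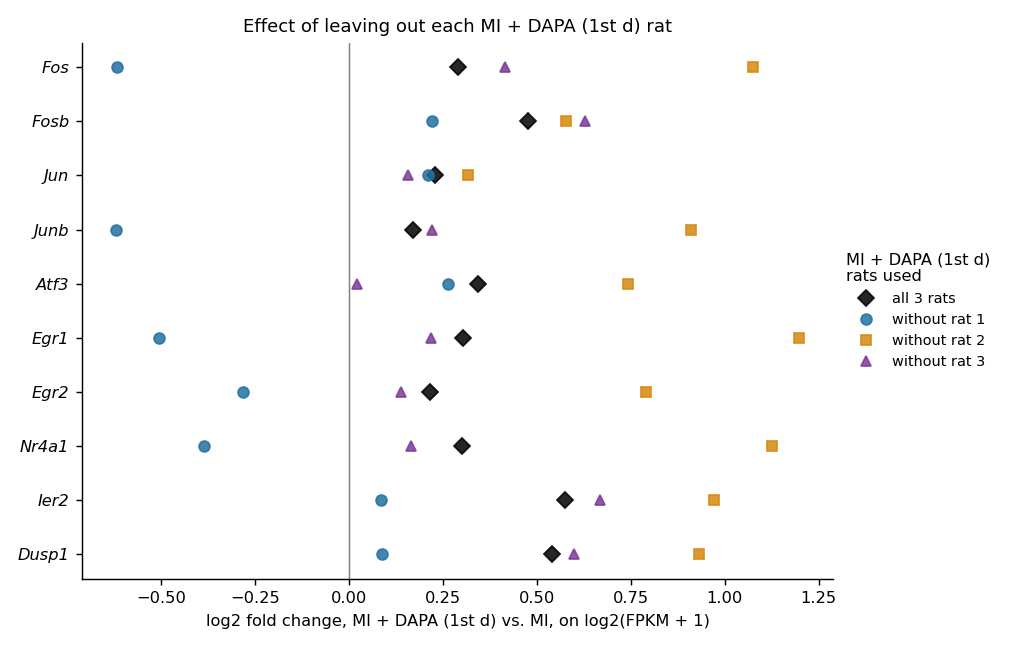
Log2 fold change on log2(FPKM + 1) between group DAPA and group MI, with all 3 treated rats (black diamonds) and with rat 1, 2 or 3 of that group left out. Without rat 1, Fos, Junb, Egr1, Egr2 and Nr4a1 lie below 0, down to -0.62, and without rat 2 Egr1 reaches 1.20.

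Compared with group Sham, group DAPA showed Fos and Egr2 higher, with ratios of mean FPKM of 6.34 and 10.9. The ratio for Fos leaned on rat 1: its mean was 35.6 FPKM, and 12.7 FPKM without that rat, against 5.61 FPKM in group Sham. By limma, 2 of the 10 were called higher (9.54% of the 13359 genes tested) and 0 lower (8.16%). No member was lower at an unadjusted p under 0.05, where 2719 genes were. By the adjusted p alone, 1 was higher (14.5% of all genes) and 0 lower (14.1%). Only Egr2 was above group Sham in every treated rat (23.2% of all genes), and 0 members were below it without overlap (23.3%). Egr2 differed by 1.98 (SE 0.50, limma adjusted p = 0.0231) and Fos by 1.87 (SE 0.75, adjusted p = 0.101). All 3 Sham rats were below 1 FPKM for Egr2, so it entered this test through the treated rats, where it was high. Junb at 1.45 (adjusted p = 0.161) and Egr1 at 1.83 (adjusted p = 0.128) did not pass. This comparison shares its Sham rats with MI vs. Sham, so the 2 are not independent.

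The calls against group Sham turned on single treated rats. Without rat 1 or without rat 3 of group DAPA, 0 members were called higher and Egr2 was no longer tested, since only 2 rats were left above 1 FPKM. Without rat 2, 4 members (Fos, Junb, Egr1 and Nr4a1) were called higher, where 1245 of the 12890 genes tested were. Egr2 was not tested in that fit either. Without Sham rat 2 or Sham rat 3, 1 was called (Egr2).

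The spread within each group was measured as the SD of log2(FPKM + 1) among its 3 rats. In group Sham the median SD of the 10 members was 0.383, against 0.262 for the 14157 genes with at least 1 FPKM in 3 rats. In group MI it was 0.247 against 0.211. In group DAPA it was 0.992 against 0.249, so the members were spread widely there while the genes at large were not.

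Of the 10 members, 1 (Egr1) exceeded the 90th percentile of all genes in group Sham, 2 (Fos and Dusp1) did in group MI, and 8 did in group DAPA. The 2 that did not were Fosb, with an SD of 0.445, and Jun, with an SD of 0.162. The largest SDs of the third group were those of Egr1 and Fos, at 1.71 each, followed by Junb and Nr4a1 at 1.53 each. With a pseudocount of 0.1 the medians of members and all genes were 1.11 and 0.302 in that group.

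**Figure D4:**
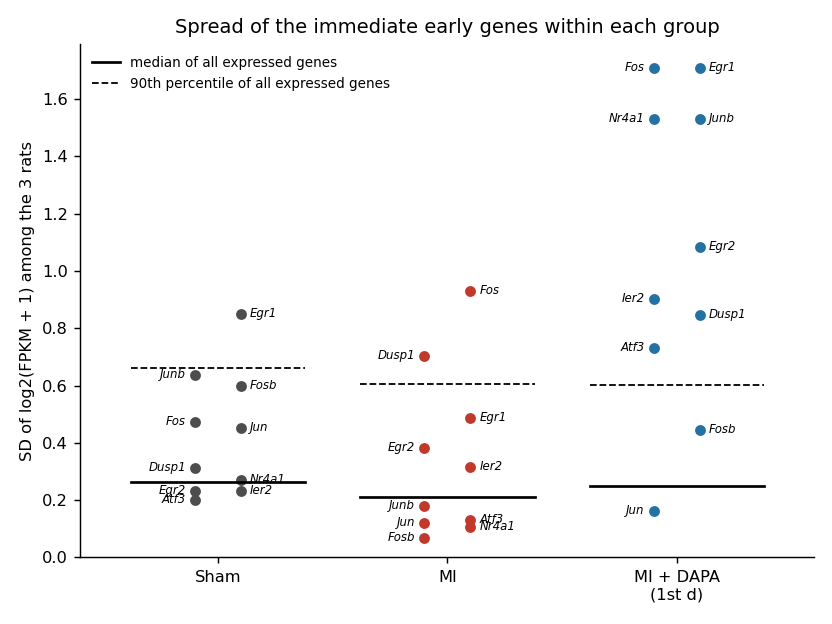
SD of log2(FPKM + 1) among the 3 rats of each group for the 10 genes (points, named), with the median (solid line) and the 90th percentile (dashed line) of all 14157 expressed genes. In group DAPA, 8 of the 10 points lie above the dashed line of 0.601, against 1 in group Sham and 2 in group MI.

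Rats 1 and 2 of group DAPA stood at opposite ends. All 10 members were higher in rat 1 than in rat 2, with ratios of FPKM of 11.9 for Fos, 11.5 for Egr1, 9.66 for Nr4a1, 8.51 for Junb, 6.35 for Egr2, 3.46 for Ier2, 3.25 for Dusp1, 2.22 for Atf3, 2.05 for Fosb and 1.16 for Jun. On log2(FPKM + 1), 5 of the 10 differed by over 4-fold between these 2 rats, where 1.17% of all genes did, and 7 by over 2-fold, where 6.82% did. Rat 1 was the highest of all 9 rats in 7 members (10.04% of all genes). Rat 2 was the lowest of its group in 9 members (33.9% of all genes).

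Rats 2 and 3 of that group also differed. Between them, 6 of the 10 members differed by over 2-fold on log2(FPKM + 1) (8.58% of all genes), and 9 were higher in rat 3. A smaller pattern of the same kind was seen in the other groups. Sham rat 2 was the lowest Sham rat in 8 members (35.5% of all genes) and MI rat 1 the lowest MI rat in 8 (27.7%). On log2(FPKM + 1), 2 members were over 2-fold apart between Sham rats 1 and 2 (9.59% of all genes) and 2 between MI rats 1 and 2 (7.92%). In plain FPKM, 4 members (Fosb, Junb, Egr1 and Egr2) were over 2-fold apart between Sham rats 1 and 2, and 2 (Fos and Dusp1) between MI rats 1 and 2. No member differed by over 4-fold within either group, on either scale.

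The members deviated together from rat to rat. After each group's mean was subtracted, the correlation between pairs of members over the 9 rats had a median of 0.70 over 45 pairs, from 0.25 to 0.96. These values share library and depth and are given as a description. Egr1 followed the mean of the other 9 members most closely, with r = 0.99, and Jun least, with r = 0.51. Without rat 1 of group DAPA, Egr1 was still the closest (r = 0.99), while the least close was Fosb (r = 0.45) and Jun was at 0.65.

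Among 10288 other genes with a within-group SD of at least 0.2, the 8 whose deviations were most like the mean of the members included Ccn1 (r = 0.97), Zfp36 (0.96), Il1b (0.95), Bok (0.94), Adamts1 (0.94), Hoxb2 (0.93) and Cxcl1 (0.93), each over 9 rats. Of these 8, 3 stood on the lists of further early-response genes described below. Ccn1 encodes a matrix-associated signalling protein and Zfp36 a protein that speeds the decay of inflammatory mRNAs, while Il1b and Cxcl1 encode a cytokine and a chemokine. Without rat 1 of group DAPA, the 8 correlations were 0.870 or above. Over the 6 rats of groups Sham and MI they ran from 0.688 to 0.989. The 8 genes were picked by correlation over the same 9 rats, so high values within parts of these partly follow from that choice. The share of all 10288 genes on those lists was not counted.

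Ccn1 stood at 48.4, 17.7 and 35.1 FPKM in the Sham rats, at 26.5, 56.7 and 56.4 FPKM in the MI rats and at 129, 17.0 and 69.7 FPKM in the DAPA rats. Zfp36 stood at 46.9, 33.5 and 45.4 FPKM, at 30.8, 59.1 and 61.5 FPKM, and at 125, 26.9 and 69.6 FPKM. In both, rat 2 of group Sham, rat 1 of group MI and rat 2 of group DAPA were the lowest of their groups, as for most members. Cxcl1 differed by 10.6 times between rats 1 and 2 of the treated group. Of the 8 genes, 7 were highest of all 9 rats in that rat 1, which the way they were picked favours.

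**Figure D5:**
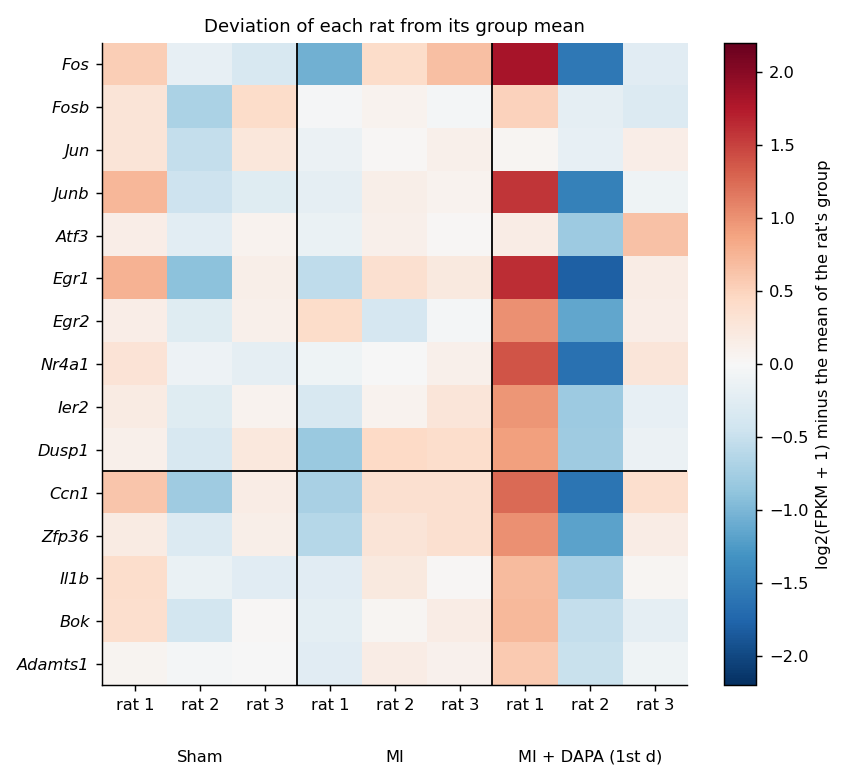
Deviation of log2(FPKM + 1) from the mean of the rat's own group, for the 10 immediate early genes (upper block) and the 5 other genes most like them (lower block), in 9 rats. Red is above and blue below the group mean. Rat 1 of group DAPA is above and rat 2 below the group mean in every row, with Jun the palest of the members.

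Lists of related genes show the rest of the pathway, to be read beside the shares of all genes given above and medians over all genes of -0.01 in MI vs. Sham and -0.02 in DAPA vs. MI. Of 15 other AP-1 and CREB/ATF factors tested in MI vs. Sham, 4 were called higher, among them Fosl2, Batf and Maf, and 0 lower by limma (1 lower at an unadjusted p under 0.05), with a median log2 fold change of 0.60, and without Sham rat 3 or MI rat 2 the 4 became 2. Maf, a macrophage-enriched factor of the wider bZIP family, rose by 3.35 (adjusted p = 0.000953). Maf was the only one of the 15 called in DAPA vs. MI, at -1.10 (adjusted p = 0.558), standing at 12.5, 7.52 and 22.3 FPKM in the treated rats and at 25.0, 41.2 and 23.1 FPKM in the MI rats.

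Of 21 other early-response transcription factors tested in MI vs. Sham, 5 were called higher (Egr3, Bhlhe40, Tsc22d3, Cebpb and Id2) and 1 lower (Id1), with a median of 0.09. Id2, a dominant-negative helix-loop-helix protein, rose by 2.56 (adjusted p = 0.000953), and its relative Id1 fell by 1.40 (adjusted p = 0.00489). DAPA vs. MI gave 0 calls among 21 by limma, with 0 higher and 2 lower at an unadjusted p under 0.05.

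Of 22 other early-response signalling and secreted products tested in MI vs. Sham, 6 were called higher, among them Ier3, Gadd45b, Ccn2, Ptgs2 and Thbs1, and 3 lower (Arc, Plk2 and Sgk1), with a median of 0.34. The 3 became 5 without MI rat 3. Ccn2, a matrix-associated protein of fibrosis, rose by 2.87 (adjusted p = 0.00594). In DAPA vs. MI, 1 of 23 was called higher, Gadd45g, a growth arrest gene, at 102, 38.2 and 53.1 FPKM against 20.8, 30.2 and 33.0 FPKM in the MI rats (1.08, adjusted p = 0.558), and 0 were called lower, also at an unadjusted p under 0.05. Of the 25 list genes found, 24 were higher in rat 1 than in rat 2 of the treated group. The median log2 ratio of all genes between these rats was -0.01. By over 2-fold, 11 of the 23 expressed were higher in FPKM. On log2(FPKM + 1) it was 10, where 6.82% of all genes differed by over 2-fold in either direction. On that scale it was 5 of 21 other transcription factors (1 lower), 5 of 23 feedback regulators and 1 of 15 AP-1 and CREB/ATF factors. The share of all genes in plain FPKM was not counted, here or for the lists below.

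Of 23 negative feedback regulators tested in MI vs. Sham, 2 were called higher (Dusp4 and Trib1) and 1 lower (Nfkbia), with a median of 0.22. Dusp4, a MAPK phosphatase like Dusp1, rose by 1.38 (adjusted p = 0.00866), and like Egr2 it was below 1 FPKM in all 3 Sham rats and entered the test through the MI rats. Nfkbia, the inhibitor of NF-kappaB, fell by 1.22 (adjusted p = 0.0202). DAPA vs. MI gave 0 called higher (2 at an unadjusted p under 0.05) and 1 lower (Dusp2). Without MI rat 2 only 1 was called higher in MI vs. Sham.

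Of 31 upstream kinases and SRF/CREB partners tested in MI vs. Sham, 2 were called higher (Mrtfa and Rps6ka1) and 3 lower (Mapk11, Mapk12 and Rps6ka2), with a median of 0.06, and without MI rat 2 none was called higher. Mapk12, a muscle-enriched p38 kinase, fell by 2.42 (adjusted p = 0.000953). DAPA vs. MI gave 0 calls among 31 (2 higher at an unadjusted p under 0.05), and between rats 1 and 2 of group DAPA 1 of these genes differed by over 2-fold in FPKM (Mapk11, at 1.25 and 3.03 FPKM, higher in rat 2). Of 13 heat shock genes, which respond to proteotoxic stress, 1 was called higher in MI vs. Sham (Hspa1b, a call lost without Sham rat 1, Sham rat 2, MI rat 1 or MI rat 3), and 3 of the 15 expressed were over 2-fold higher in FPKM in rat 1 than in rat 2 (Hsp90aa1, Hspa1b and Hspa4l). Without DAPA rat 1, none of the genes of these 6 lists was called in DAPA vs. MI.

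Markers of cell types moved with the groups. In MI vs. Sham, 11 of 12 fibroblast markers and 11 of 11 macrophage markers were called higher, and 5 of 8 endothelial markers were called lower. Of 9 T and B cell markers, 5 were called higher (3 without Sham rat 1 or Sham rat 3, 9 without MI rat 1), with summed levels of 12.3 to 26.4 FPKM in group Sham and of 93.4, 3886 and 716 FPKM in MI rats 1, 2 and 3. MI rat 2 stood apart through Jchain, the joining chain of secreted antibodies, at 2881 FPKM against 23.9 and 503 FPKM in MI rats 1 and 3. Of 15 cardiomyocyte markers, 1 was called higher (3 without MI rat 2) and 3 lower (5 without MI rat 3). Summed levels of the fibroblast markers were 484 to 789 FPKM in group Sham, 4080 to 7950 in group MI and 2590 to 4469 in group DAPA. Those of the macrophage markers were 161 to 509, 1994 to 3599 and 1087 to 2032 FPKM. The part of these shifts in the higher Fos, Junb, Egr1 and Egr2 of group MI was not tested.

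Within group DAPA, most members were highest in rat 1 and lowest in rat 2. The summed endothelial and neutrophil markers had the same order, and the summed cardiomyocyte and fibroblast markers did not. Summed macrophage markers were lowest in rat 2 but highest in rat 3. Summed smooth muscle and pericyte markers were highest in rat 1 but lowest in rat 3. Summed over the lists, rats 1, 2 and 3 stood at 23651, 26922 and 12924 FPKM for cardiomyocyte markers, at 2590, 3200 and 4469 FPKM for fibroblast markers, at 698, 599 and 659 FPKM for endothelial markers, at 1490, 1087 and 2032 FPKM for macrophage markers and at 2415, 1621 and 1509 FPKM for smooth muscle and pericyte markers. Higher in rat 1 than in rat 2 were 11 of 11 macrophage markers, 7 of 8 smooth muscle and pericyte markers and 5 of 8 endothelial markers, of which 1, a macrophage marker, was so by over 2-fold. The mitochondrial share of reads was 27.2%, 32.0% and 17.5%, with rat 1 between the others. Total reads and median gene levels of rats 1 and 2 were alike, with a median log2 ratio of -0.01 over all genes.

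Neutrophil markers, summed over 8 genes, were highest in rat 1 of group DAPA (178, 13.3 and 34.5 FPKM in rats 1, 2 and 3). The sum was 18.6 to 71.5 FPKM in group MI, highest in rat 1, and 13.7 to 49.3 FPKM in group Sham, highest in rat 2. Those 2 rats were each the lowest of their group in 8 members. S100a9 and S100a8, which make calprotectin, carried most of the sum in group DAPA. They stood at 116 and 53.4 FPKM in rat 1 and at 7.31 and 4.13 FPKM in rat 2. In the same rats, Csf3r stood at 3.11 and 0.593 FPKM, and Mmp8 at 4.42 and 0.306 FPKM. Of the 8 genes, 5 were higher in rat 1 than in rat 2. Cxcr2 was highest in rat 3, Ngp and Camp were highest in rat 2, all 3 at low levels, and the granule gene Mpo was listed at 0 in all 3 treated rats. Erythroid genes were lowest in rat 1, at 13.7, 496 and 238 FPKM summed over 5 genes in rats 1, 2 and 3, and highest in Sham rat 2, at 5842 FPKM, the Sham rat with the lowest level of 8 members. In group MI they were highest in rat 2, at 1310 FPKM, the rat with the highest level of 5 members (38.8% of all genes). The part of any of these cell types in the spread of the members was not tested.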

How the data were processed

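Left ventricles of 9 SD rats, 3 per group (Sham, MI and, written DAPA here, MI + DAPA (1st d)), were sequenced as poly-A selected libraries. Values were deposited by the authors as FPKM, with a column for each rat, and 0 columns were left out. The submitters' processing notes name HISAT2 2.0.5, StringTie 1.3.3b, featureCounts 1.5.0-p3 and DESeq2 without their roles. The genome build and the strand setting are not given in the sources used here, so overlapping and antisense genes may share reads. The 10 genes, the wider lists and the tests were chosen with earlier results of these data known.

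Whole reads were recovered from the FPKM steps (tolerance 0.03 reads) for 18896 of 18896 genes seen in at least 4 libraries, and another 4359 genes were not recovered. In simulated libraries 99.42% of 18442 genes came back exactly. Reads carry no molecular identifiers, so depth covers counting error only. Because the values are not counts, limma 3.58.1 (R 4.3.3) was fitted to log2(FPKM + 1), with 2 groups per fit, a variance trend and genes of at least 1 FPKM in at least 3 rats fitted. Calls followed the study's rule, a p under 0.05 and over 2-fold, with p taken as unadjusted, since the paper does not say. All tests were two-sided, and adjusted values are Benjamini-Hochberg over all genes tested. In simulated data with 4-fold changes, 95.2% of 187 changed genes were called in MI vs. Sham among 13677 tested. The shares were 91.7% of 192 in DAPA vs. MI among 13349 and 91.1% of 191 in DAPA vs. Sham among 13474. In each comparison 0 were called in the wrong direction. The simulated spread between rats was set alike for all genes. It did not follow that of the members in group DAPA, whose median SD was 0.992, so these shares do not hold for them.

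All 10 members are named. From each wider list the rule took at most 4 genes with the smallest p in MI vs. Sham and at most 2 in DAPA vs. MI, and the 8 genes most alike in their deviations were added; some genes the rule takes are not reported here. The 250 bases and 6 motifs searched, and the calls per list, were descriptions. Fosl2, Egr3, Tsc22d3, Ier3, Ptgs2, Thbs1, Arc, Plk2, Dusp2, Mrtfa, Rps6ka1, Hspa1b, Hsp90aa1, Hspa4l and the neutrophil genes were named after their values were seen. Over all genes, samples with the same replicate number did not deviate together (mean correlation 0.02, -0.17 and 0.10 in the 3 comparisons). Rats were therefore treated as unpaired. The members had a like order in groups Sham and DAPA. Rat 1 was highest in 8 members in group Sham (34.3% of all genes) and in 8 in group DAPA (29.0%). Rat 2 was lowest in 8 (35.5%) and 9 (33.9%). In group MI, rat 1 was lowest in 8 (27.7%). The cause of this order was not tested. Alternatives were a pseudocount of 0.1, no filter, 2 other scalings, a replicate block, all 9 rats in 1 fit, adjusted p-values and each rat left out. Python 3.11.15 with pandas 2.3.3, numpy 2.4.6 and matplotlib 3.10.9 served for the rest. Promoter sequences are from RefSeq, GRCr8.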

Additional observations from a re-analysis of the deposited data

How the results depend on the processing

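The count of members called higher in MI vs. Sham was 4 and stayed between 3 and 4 in the alternatives run on the deposited scale, apart from 1 with all 9 rats in 1 fit. Scaled to all recovered reads it was 6, where 6099 of the 13535 genes tested were called higher. The count called lower was 0, and 1 with a pseudocount of 0.1, with the mitochondrial genome left out, with the adjusted p alone, and 0 to 1 without single rats. For DAPA vs. MI the count called higher was 0, and 0 to 1 without single rats (1 without DAPA rat 2). For DAPA vs. Sham the count called higher was 2. It was 1 without a filter, 4 with the replicate block (1293 of 13359 genes) and 4 with all 9 rats in 1 fit (1309 of 14157 genes). It was 1 with the adjusted p with or without the fold, and 0 to 4 without single rats. Scaled to all recovered reads it was 6, where 4433 of the 13050 genes tested were called higher. The labels do not say that replicate numbers pair the rats. The block changed no other count of members called (4 in MI vs. Sham, 0 in DAPA vs. MI). In DAPA vs. Sham the SE of Egr1 was 0.81 without and 0.33 with the block, and that of Junb 0.70 and 0.36.

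Scaled to all recovered reads, signs turned in MI vs. Sham for Fosb (0.0484), Jun (1.01), Atf3 (0.90), Ier2 (0.34) and Dusp1 (0.10), in DAPA vs. MI for Junb (-0.0535), and in DAPA vs. Sham for Fosb (0.41), Ier2 (0.69) and Dusp1 (0.42). With single rats left out, log2 fold changes that changed sign ran in MI vs. Sham from -0.34 to 0.0556 for Jun and from -0.13 to 0.0648 for Atf3. In DAPA vs. MI they ran from -0.62 to 1.08 for Fos, -0.62 to 0.91 for Junb, -0.51 to 1.20 for Egr1, -0.28 to 0.79 for Egr2 and -0.39 to 1.13 for Nr4a1. In DAPA vs. Sham they ran from -0.50 to 0.0455 for Fosb, -0.12 to 0.28 for Jun, -0.26 to 1.25 for Nr4a1 and -0.68 to 0.21 for Ier2. The cause was not tested. With 3 rats a group, precision was set by the spread between rats, and for Fosb and for Egr2 in group Sham also by low read counts.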
